A study of Mus musculus with 4 samples.

Results

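MicroRNA genes were examined as targets of the transcription factor Zeb1 in mouse embryonic stem cells, through the regions of a Zeb1 chromatin immunoprecipitation (ChIP-seq) list that were assigned to them. Members were the peaks whose assigned gene symbol begins with Mir followed directly by a digit, or with Mirlet7. The rule found 504 of 17435 peaks, which carried 323 of the 12271 gene symbols in the list. A single peak was assigned to each of the miR-200 clusters, 1 to Mir200c and 1 to Mir200b, and 502 peaks to other microRNA genes. Among the 323 symbols, 3 were host transcripts that carry microRNAs (Mirlet7bhg, Mir22hg and Mir143hg, 9 peaks), and the other 320 were microRNA genes proper.

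The cells were D3 mouse embryonic stem cells kept in GS, an NDiff N2B27 medium to which PD0325901 (1 μM, blocks MEK), CHIR99021 (3 μM, blocks GSK-3) and LIF (20 ng/mL) were added. Chromatin was fixed with 1% formaldehyde and sheared to fragments of about 200 bp, and the 3 Zeb1 libraries were made with 8 μg of the antibody H-102 against Zeb1. The 1 input library was made with no antibody. The list gives for each peak 1 mean of treatment reads, 1 mean of input reads and 1 mean enrichment (treatment over input), and no value per library, so no spread between libraries could be measured. The enrichment is not the plain ratio of these means. It was a median of 2.07 times that ratio over all peaks (quartiles 1.97 and 2.18), and how this factor arises is not in the list. The authors drew the same number of reads from every sample, and how many of these aligned in each library is not in the list. A list of bound regions holds no expression marker, so the labelled cell identity could not be checked.

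MicroRNAs are short RNAs cut from hairpins in longer transcripts, and they pair with messenger RNAs mainly through their seed, the bases near the 5′ end. The miR-200 family keeps epithelial cells epithelial by repressing Zeb1 and Zeb2, and Zeb1 in turn represses the genes of both miR-200 clusters through E-boxes, a double-negative loop known from carcinoma cells. The miR-290 and miR-302 clusters are known from embryonic stem cells, while let-7 and tissue-specific microRNAs rise during differentiation. The levels of these microRNAs in the present cells were not measured here.

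Of the 320 microRNA genes named in the list, 290 were found in the table of microRNA sequences from RefSeq (GRCm38.p6). The mature sequences below belong to the family that closes the loop with Zeb1 and to the other microRNAs that the results turn on. Capitals mark the seed, bases 2 to 8, and microRNAs that share a seed stand together. The miR-200 family has a pair of seeds, and each seed is encoded in both clusters.
miR-200b-3p: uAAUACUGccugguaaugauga
miR-200c-3p: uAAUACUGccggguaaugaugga
miR-429-3p: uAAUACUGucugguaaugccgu
miR-200a-3p: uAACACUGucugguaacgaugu
miR-141-3p: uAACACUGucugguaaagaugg
The next group holds stem cell microRNAs of 4 clusters, with the seed AAAGUGC of the Mir17 and Mir106a clusters and the seed AAGUGCU of the miR-290 and miR-302 clusters.
miR-17-5p: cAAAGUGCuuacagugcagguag
miR-106a-5p: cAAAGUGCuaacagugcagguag
miR-20b-5p: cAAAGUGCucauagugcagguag
miR-294-3p: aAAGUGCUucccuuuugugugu
miR-302b-3p: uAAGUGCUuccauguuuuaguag
The last group holds microRNAs of differentiated cells whose hairpins overlapped a Zeb1 peak, and let-7a, which shares its seed with let-7i.
miR-132-3p: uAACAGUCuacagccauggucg
miR-212-3p: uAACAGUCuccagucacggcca
let-7i-5p: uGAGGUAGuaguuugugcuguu
let-7a-5p: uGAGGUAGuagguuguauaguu
miR-9-5p: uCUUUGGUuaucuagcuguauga
miR-34b-5p: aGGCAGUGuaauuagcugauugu
miR-203-3p: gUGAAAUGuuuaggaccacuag
miR-10b-5p: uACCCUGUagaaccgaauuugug
miR-196b-5p: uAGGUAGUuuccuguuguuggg
miR-219a-5p: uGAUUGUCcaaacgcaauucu
miR-126a-3p: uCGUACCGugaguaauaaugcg

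The list held a Zeb1 peak at the Mir200c-Mir141 cluster and none within 10 kb of the Mir200b-Mir200a-Mir429 cluster. A region without a listed peak was not shown to be unbound, and ChIP of single loci by PCR was not analysed here. The Mir200c-Mir141 cluster spans 477 bp on the minus strand of chromosome 6, outside other genes. Its peak, chr6:124717951-124719500 (GRCm38), was 1550 bp long, covered the Mir200c hairpin whole and that of Mir141 in part, and was centred 335 bp upstream of the start of Mir200c and 740 bp upstream of that of Mir141. It had a mean of 53.5 treatment reads and 20.0 input reads and an enrichment of 5.15. Of all peaks, 28.2% had a lower enrichment and 60.8% had fewer treatment reads. No other gene start lay near it, the closest being that of Phb2, which encodes prohibitin 2, at 6436 bp from the peak centre.

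The sequence just upstream of Mir200c held a dense run of E-box-like words. Peaks were searched on both strands for an 8-base Zeb1 motif, spelled CNCACCTG, CNTACCTG, TNCACCTG or TNTACCTG, and for the 6-base E-box CACCTG, which is contained in the first and the third of these spellings. The Mir200c peak held 5 matches to the 8-base motif, all between 202 and 497 bp upstream of the start of Mir200c, and 4 E-boxes. At least 5 matches were found in 2.15% of the 697 peaks of the same length, in 8.27% of all peaks and in 19.4% of the microRNA peaks, while at least 1 was found in 70.9% of the peaks of that length. A match describes the letters of the sequence and is not a measured binding site. The windows below show each match in capitals within its flanks, read 5′ to 3′ on the strand given (GRCm38).
202 bp upstream, chr6:124718578-124718607, plus strand: agcctctactaTCCACCTGcgagccagtcc
321 bp upstream, chr6:124718697-124718726, plus strand: gatcggtggccTTTACCTGgcaccagaccc
438 bp upstream, chr6:124718814-124718843, plus strand: gctcttcctccTTCACCTGccgggcagcac
463 bp upstream, chr6:124718839-124718868, plus strand: agcacaggcgcCTCACCTGggccccgcccg
497 bp upstream, chr6:124718873-124718902, minus strand: tggcaggaggaCACACCTGtgcgcagggca

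The Mir200b-Mir200a-Mir429 cluster spans 1846 bp on the minus strand of chromosome 4, inside the noncoding transcript Gm13648. The peak assigned to Mir200b, chr4:156077151-156078700, was the only peak within 50 kb and began 21.4 kb from the cluster, with its centre 22.2 kb upstream of the start of Mir200b. It had the same length as the Mir200c peak, 1550 bp, and nearly the same enrichment, 5.17, with 45.3 treatment reads and 18.7 input reads. It lay on an intergenic CpG island, 18.1 kb from the start of Gm13648, which itself is 4052 bp upstream of Mir200b. The assignment to Mir200b thus does not mean that the peak lay at the cluster, and in the reference the start of Gm13648 was nearer to it.

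The distal Mir200b peak held 2 matches to the 8-base motif and 1 further E-box, which are shown in capitals for comparison with the Mir200c windows (GRCm38).
22106 bp upstream, chr4:156077842-156077871, plus strand: ggtcccaggcgCGCACCTGgcgtttctggt
22476 bp upstream, chr4:156078212-156078241, plus strand: tgcttgacatcCCCACCTGtgcccaattaa
22250 bp upstream, chr4:156077987-156078014, minus strand: tcagcggcgggCACCTGcgccggcttct
The cluster without a nearby peak was not poor in these words. The 5 kb upstream of Mir200b held 10 E-boxes and 7 matches to the 8-base motif, and the 5 kb upstream of Mir200c held 10 and 9. Over all 1228 microRNA hairpins of the reference, the median was 4 E-boxes in the 5 kb upstream, and 6.60% of hairpins had at least 10. At least 1 E-box was found upstream of 96.6% of hairpins and at least 1 match to the 8-base motif upstream of 96.3%.

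**Figure D1:**
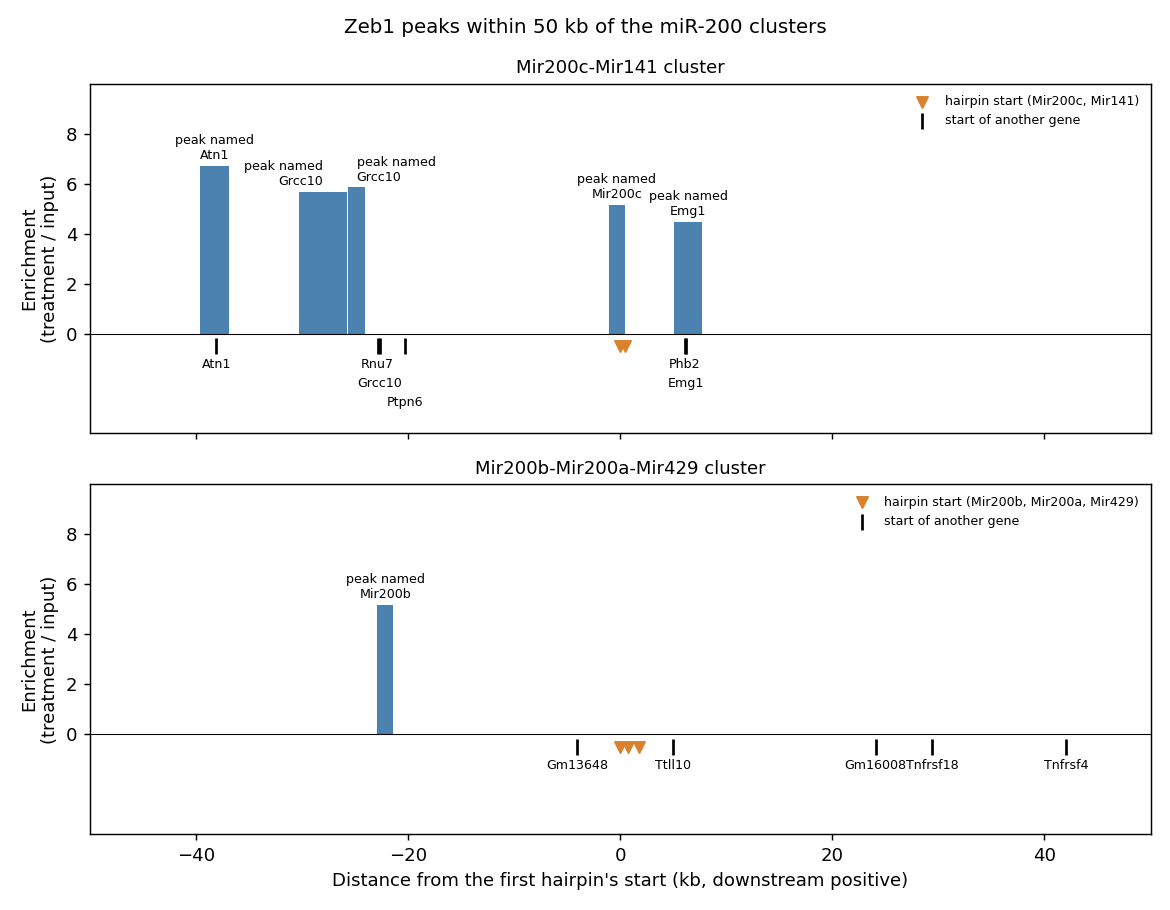
Zeb1 peaks within 50 kb of each miR-200 cluster, with the distance from the first hairpin's start in kb on the x axis and the enrichment (treatment over input) on the y axis; bar widths are peak lengths, triangles hairpin starts and ticks other gene starts. A peak of enrichment 5.15 overlaps the Mir200c and Mir141 hairpins, and the only peak around the other cluster is centred 22.2 kb upstream.

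The neighbourhood of the Mir200c-Mir141 cluster held 4 further peaks within 50 kb, each assigned to another gene. The nearest, assigned to Emg1, a ribosome biogenesis factor, lay 4614 bp downstream of the cluster with an enrichment of 4.46 and 84.6 treatment reads, and its centre was 178 bp from the start of Emg1 and 289 bp from that of Phb2. A pair assigned to Grcc10 lay 24.1 kb and 25.8 kb upstream with enrichments of 5.85 and 5.66, and both fell in exons of Atn1. The fourth lay at the start of Atn1, 36.9 kb upstream, with an enrichment of 6.70. The Mir200c peak was thus neither the strongest nor the weakest of the 5 peaks in its neighbourhood.

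Both family targets carried a Zeb1 peak of their own near a start, as did 51.5% of protein-coding genes within 5 kb of any start. Zeb1 had a peak centred 322 bp upstream of the nearest start, which the list assigned to Gm10125, with an enrichment of 6.06. Zeb2 had a peak centred 777 bp downstream of the nearest start, with an enrichment of 8.05.

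The other microRNAs tied to the epithelial-mesenchymal transition (EMT) were either overlapped by a peak or had no peak centred within 5 kb of their start. The edge of a broad peak can lie nearer than its centre. Of 20 listed hairpins, 6 had a peak centred within 5 kb of their start, or 30%, and the same 6 were overlapped by it. Over all 1228 hairpins of the reference, 328 had a peak within 5 kb, or 26.7%, and 166 overlapped one, or 13.5%. The 6 lay in 5 peaks with a median enrichment of 10.9. The start of a hairpin is where its stem begins in the reference and not the start of the primary transcript, which the list does not give.

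Mir34b and Mir34c, targets of p53, shared a peak with an enrichment of 10.9, centred 80 bp upstream of Mir34b. Mir9-1 and Mir9-3 encode the same mature miR-9, a regulator of neurogenesis. Mir9-1 lay under the peak assigned to Mir3093, with an enrichment of 19.1, and Mir9-3 under a peak of 11.1 centred 136 bp downstream of its start. The copy Mir9-2 had its nearest peak 8239 bp upstream. Mir203, which drives epidermal differentiation, lay in a peak with an enrichment of 6.63 that held 7 motif matches in 5500 bp. Mir10b, in the HoxD cluster, lay at the edge of a peak with an enrichment of 5.70. The peaks over Mir34b and Mir9-1 thus had a higher enrichment than the one over Mir200c, with 89.2% and 98.5% of all peaks below them. By treatment reads the order differed, with 125 over Mir9-1, 53.5 over Mir200c and 41.5 over Mir34b. The Mir34b ratio rests on a smaller input, 7.5 reads beside 20.0 for Mir200c.

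The remaining EMT microRNAs had their nearest peak farther away. Mir183 and Mir96, which act with Mir182 in sensory organs, lay 5263 and 5449 bp downstream of a peak assigned to BB283400 and Mir182 lay 9008 bp downstream of it. That peak had 241 treatment reads and an enrichment of 8.64, and its centre lay 875 bp upstream of the start of Mirc35hg, the host transcript of the 3 hairpins. Mir155, known from immune cells, had its nearest peak 11040 bp upstream, and Mir30a 15.8 kb upstream. Mir34a, the paralogue of Mir34b and Mir34c on another chromosome, had its nearest peak 19.1 kb downstream, at Gpr157. The peak that the list assigned to Mir34a was centred 19804 bp upstream on a CpG island, with an enrichment of 10.1. The list annotates that upstream peak as at the start of an Ensembl gene. Mir101a, Mir101b, Mir30c-2 and Mir21a had theirs 9.32 to 39.7 kb away. Mir205, like miR-200 an epithelial microRNA that targets Zeb1, had none within 200 kb, the nearest being 235 kb away. Mir221 and Mir222 were 349 and 350 kb from a peak, which was centred on a LINE-1 element.

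The stem cell microRNAs divided by cluster. The 27 listed genes were 26 hairpins and the host transcript Mir17hg. Of the 26 hairpins, 12 had a peak within 5 kb, or 46.2% beside 26.7% of all hairpins, and Mir17hg had one too, but these 13 genes shared 2 peaks. None of the hairpins was overlapped, beside 13.5% of all hairpins. The proliferation cluster that begins with Mir17 and its host transcript Mir17hg had a peak 3121 bp upstream of Mir17, on a CpG island, with an enrichment of 5.85 and 32.5 treatment reads. Its paralogue on the X chromosome, which begins with Mir106a, had a peak 1833 bp upstream of Mir106a, in an exon of the host transcript Kis2. That peak had an enrichment of 31.0, above 99.6% of all peaks, but it had a mean of 31 treatment reads and 2 input reads, so the ratio rests on a small input. Neither peak held a match to the 8-base motif, and the Kis2 peak held 2 E-boxes.

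The miR-290 and miR-302 clusters had no peak centred within 5 kb. The miR-290 cluster (Mir290a, Mir291a, Mir292a, Mir293, Mir294 and Mir295) had its nearest peak 44.0 to 46.1 kb downstream, assigned to Nlrp12, with an enrichment of 16.2. The miR-302 cluster (Mir302a, Mir302b, Mir302c, Mir302d and Mir367) had its nearest peak 7.57 to 8.07 kb downstream, in an exon of Larp7, with an enrichment of 6.64. The peak that the list assigned to Mir302b lay 46178 bp upstream of it. That peak was centred 65 bp from the start of Ank2 and had an enrichment of 6.53. For Mir106b, Mir93 and Mir25, inside the replication gene Mcm7, the nearest peak was 28.9 to 29.3 kb upstream, at Mblac1. Clusters with related seeds thus differed in how near their closest Zeb1 peak was.

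Differentiation microRNAs had a nearby peak about as often as all hairpins did. The list had 48 names for 47 hairpins, of which 14 had a peak within 5 kb, or 29.8% beside 26.7% of all hairpins, and 7 were overlapped, or 14.9% beside 13.5%. The peaks of the 14 had a median enrichment of 7.95 and a range of 4.7 to 10.97. Among neural microRNAs, Mir124a-3 lay in a peak with an enrichment of 8.17 and 128 treatment reads, and Mir219a-1, an oligodendrocyte microRNA, in one of 10.97 assigned to the Polycomb gene Ring1. Its second copy Mir219a-2 lay in a peak of 5.60. Mir375, an islet microRNA, lay in a peak of 8.00 and Mir126a, the endothelial microRNA inside Egfl7, in one of 4.7. The starts of these hairpins were 79 to 457 bp from the centre of their peak.

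Among the let-7 genes, Mirlet7i lay in a peak with an enrichment of 8.60, centred 76 bp upstream. Mirlet7c-2 and Mirlet7b lay 3653 and 4369 bp downstream of a peak with an enrichment of 4.7, the closest of the 7 peaks assigned to their host transcript Mirlet7bhg. Those 7 peaks ran from 0.823 to 57.6 kb upstream of the host's start and had enrichments of 4.25 to 20.0. Mirlet7a-1, Mirlet7f-1 and Mirlet7d lay 7853, 8208 and 10011 bp downstream of a shared peak of 8.34. The nearest peak of Mirlet7f-2 and Mir98, both inside Huwe1, was over 200 kb away. Occupancy thus ranged within the let-7 family, whose members share a seed, from a peak at the hairpin to none in the wider region.

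Muscle microRNAs, grouped after their values were seen, had a peak within 5 kb at 2 of 11 hairpins, or 18.2% beside 26.7% of all hairpins, and none was overlapped, beside 13.5%. Mir1a-1 lay 3123 bp downstream of a peak with an enrichment of 7.95 that was centred 321 bp from the start of its host Mir1a-1hg. Mir208b, inside the cardiac myosin gene Myh7, had a peak of 5.35 centred 2726 bp downstream. Mir499, inside Myh7b, had one of the peaks with the most treatment reads, 232, but its centre was 7520 bp away. The nearest peak was 12.5 kb from Mir133a-2, 23.0 kb from Mir208a, 30.7 kb from Mir206 and 34.4 kb from Mir133b. It was 57.0 kb from Mir133a-1 and 59.5 kb from Mir1a-2. Mir145a and Mir143, smooth muscle microRNAs, had their nearest peak 18.0 and 16.6 kb upstream, and it was centred 312 bp upstream of the start that the list assigned to Mir143hg. The peak thus lay nearer to the host's start than to the hairpins.

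Hairpins that lay inside a Hox gene or had a Hox gene's start as the nearest other start were grouped after their values were seen. Of these 6, 5 had a peak within 5 kb, or 83.3% beside 26.7% of all hairpins, and 3 were overlapped, or 50% beside 13.5%. Hairpins up to 1 kb from another gene's start had a peak within 5 kb in 56.9% and an overlap in 47.4%. At 1 to 5 kb from another start these shares were 61.2% and 16.3%. The part of nearness to a gene start in the Hox shares was not tested. Mir615, in an intron of Hoxc5, lay in a peak of 6.27, and the start of Hoxc5 was 892 bp from the peak's centre. Mir196b had a peak of 6.13 that covered it, and Mir10b one of 5.70. Mir10a had a peak of 5.30 centred 2265 bp upstream, and Mir196a-2 one of 9.06 centred 3425 bp downstream, assigned to Hoxc9. Mir196a-1 was 6411 bp from a peak assigned to Hoxb9. All 6 hairpins thus had a peak within 10 kb, beside 35.9% of all hairpins.

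**Figure D2:**
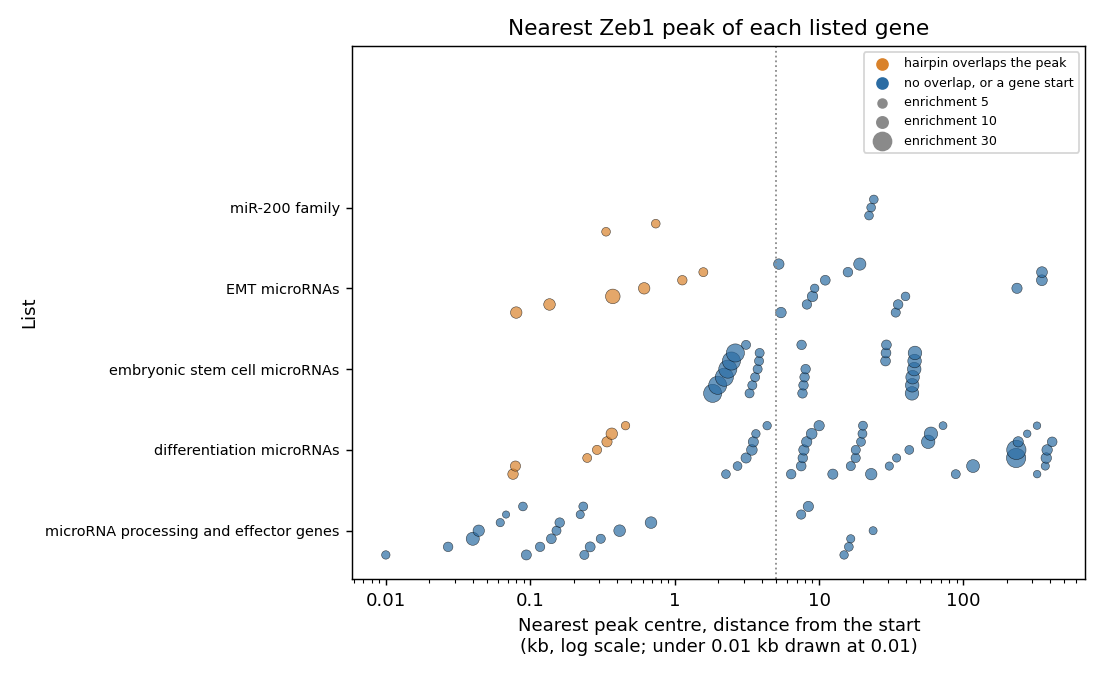
Distance in kb (log scale) from each listed hairpin or gene start to the nearest Zeb1 peak centre, by list, with point area rising with the enrichment (treatment over input) and the dotted line at 5 kb. Overlapped hairpins (orange) are 2 of 5 in the miR-200 family, 6 of 20 among EMT microRNAs, none among stem cell microRNAs and 7 of 47 among differentiation microRNAs.

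Genes that make and use microRNAs had a peak at their start more often, by count, than the microRNAs did. Of 25 listed, 19 had a peak within 5 kb of any of their starts, or 76.0%, beside 51.5% of 21000 protein-coding genes, and 50.5% where the 5′-most start of each gene counted alone. Their median enrichment was 6.46. Drosha, the nuclear nuclease that releases the hairpin, had the highest, 14.9, followed by Lin28a, which blocks let-7 maturation, and Tnrc6c, a silencing partner of the Argonautes, both at 11.3. Dicer1, which cuts the hairpin to its mature form, had 5.84, and Dgcr8, the partner of Drosha, had the lowest, 2.74. The genes without a peak within 5 kb were Ago4, Ddx17, Tarbp2, Lin28b, Khsrp and Hnrnpa1.

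As a whole, microRNA hairpins had a peak within 5 kb about as often as long noncoding RNA genes and less often than coding genes by count. The 328 hairpins with a peak within 5 kb were 26.7% of 1228 (95% Wilson interval 24.3 to 29.3%), and 28.8% of 3318 long noncoding RNA genes had one at the 5′-most start. Within 1 kb the shares were 10.8% of hairpins and 22.5% of long noncoding RNA genes, so the likeness did not hold for that window. Intervals here cover counting error only. Grouping hairpins within 10 kb of each other gave 975 clusters, of which 302, or 31.0%, had a peak within 5 kb. The Mir200c-Mir141 cluster was 1 of 23 among the 81 clusters of several hairpins, or 28.4%.

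Nearness to a gene start went with most of this occupancy. Of 137 hairpins up to 1 kb from the start of another gene, 78 had a peak within 5 kb, or 56.9%, and of 227 at 1 to 5 kb, 139 had one, or 61.2%. Of 864 hairpins beyond 5 kb, such as those of Mir200c and Mir141, 111 had one, or 12.8% (95% interval 10.8 to 15.2%). For long noncoding RNA genes beyond 5 kb of a coding start, the share was 9.24% of 2252. The cause of the difference was not tested. The Mir200c-Mir141 hairpins belong to the minority of start-distant hairpins with a peak.

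Many microRNAs lie inside a host gene, and Zeb1 was found at the host's start more often than near the hairpin. Of 787 hairpins in the sense direction of a host, 547, or 69.5%, had a peak within 5 kb of a start of the host. Counting each host once, 443 of 625 had one, or 70.9%, beside 51.5% of protein-coding genes by the same rule. For 340 of the hairpins the host's start had a peak and the hairpin had none within 5 kb, and for 207 both did. The share with a peak within 5 kb of the hairpin was 39.5% in sense exons, 26.9% in sense introns, 19.6% antisense to a gene and 22.1% outside genes. Of 11 noncoding host transcripts that the reference names for a microRNA, 7 had a peak within 5 kb of a start. The share was 28.8% for long noncoding RNA genes by the 5′-most start. Among the 7 was Mir9-3hg, with a peak of 11.6 centred 351 bp upstream of its 5′-most start. There was none within 5 kb of a RefSeq start of Mir100hg, Mir155hg, Mir205hg and Mir99ahg. The peak assigned to Mir155, centred 9923 bp upstream of the start of Mir155hg, is annotated in the list as at the start of an Ensembl gene. Mirlet7bhg and Mir143hg, which the reference calls Lncppara and Carmn, are not among the 11. The list places a peak 823 and 312 bp upstream of their starts.

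**Figure D3:**
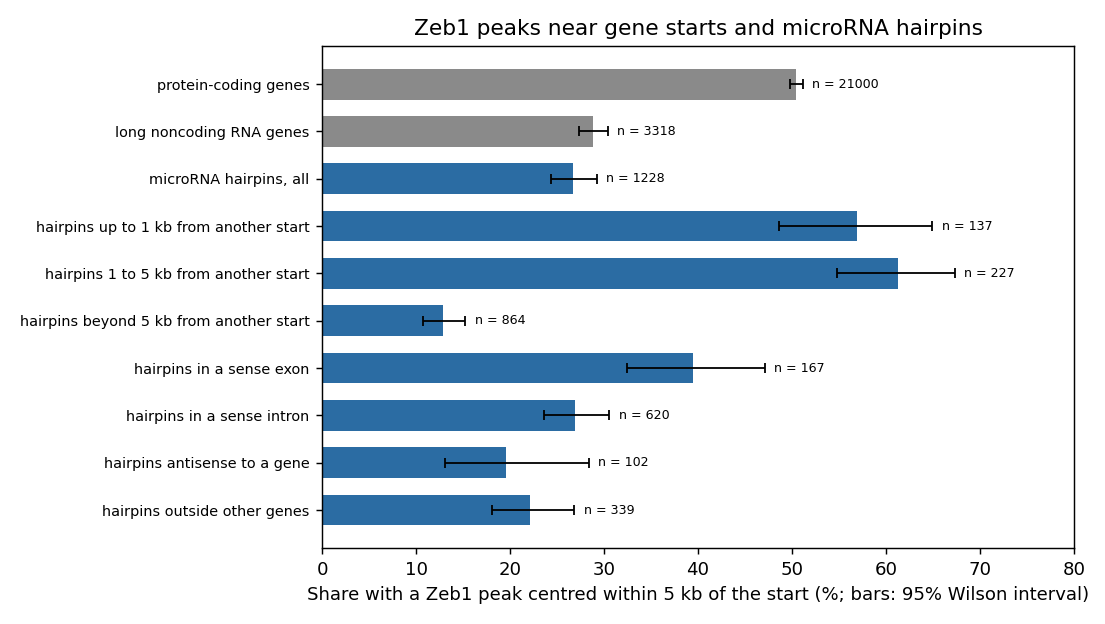
Share in percent of genes or hairpins with a Zeb1 peak centred within 5 kb of the start, with 95% Wilson intervals (counting error only) and the number in each group. Hairpins within 5 kb of another gene's start reach 56.9% and 61.2%, and those beyond it 12.8%.

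Peaks that overlapped a hairpin were few, broad and well covered by reads. They numbered 148, or 0.849% of all peaks, and 106 of them were assigned to a microRNA. Their median enrichment was 6.72 and they had a median of 66.7 treatment reads, beside 6.50 and 47.4 for all peaks, and a median length of 2600 bp beside 1850 bp. The part of peak length in these values was not tested. Several hairpins shared a peak in 15 cases, and the most in 1 peak was 4, in the cluster of Mir23a, Mir27a, Mir24-2 and Mir3074-2 with an enrichment of 4.40. Of the 166 overlapped hairpins, 65 lay within 1 kb of the start of another gene and 64, among them Mir200c and Mir141, beyond 5 kb of one. These were 47.4% of the 137 hairpins within 1 kb and 7.41% of the 864 beyond 5 kb.

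The 504 microRNA peaks were, in enrichment, close to the whole list. Their median was 6.16 (95% interval 5.83 to 6.49, from order statistics) beside 6.50 for all peaks, and 70 of them, or 13.9%, had an enrichment of at least 10, beside 14.7% of all peaks. The median peak had 44.9 treatment reads (43.0 to 47.1) beside 47.4 and 15.9 input reads beside 16.0. The miR-200 peaks, at 5.15 and 5.17, were below both medians. Base composition was alike, with a median GC content of 55.6% beside 55.5%, while the ratio of observed to expected CpG was 0.338 beside 0.538. Up to 1 kb from the assigned start this ratio was 0.498 beside 0.664, and at 1 to 5 kb 0.322 beside 0.439. At 5 to 50 kb it was 0.341 beside 0.345, and beyond 50 kb 0.303 beside 0.349. The part of position in the CpG contrast was not tested.

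In position the microRNA peaks differed from the list by count, but the rule that picks them shapes these contrasts. The centre was within 5 kb of the assigned start in 197 peaks, or 39.1% (34.9 to 43.4%), beside 61.4% of all peaks, and the median distance was 9393 bp beside 726 bp. A smaller group of 40, or 7.94%, was centred within 1 kb of the start of a gene that is not a microRNA. The share was 53.5% of all peaks, where the assigned start itself counts. Peaks assigned to such a start are left out of the members by the rule. Neither this contrast nor the others with all peaks in this paragraph are therefore results about position. Within 5 kb of the assigned start, all peaks lay mostly downstream, 74.8% of 10698, whereas microRNA peaks lay 96 downstream and 101 upstream of the hairpin start, or 48.7% downstream (41.8 to 55.7%). By annotation of the centre, 194 were intergenic, or 38.5% beside 30.1% of all peaks, and 174 in introns, or 34.5% beside 30.4%. Exons held 136, or 27.0% beside 39.6%, the class in which the microRNA peaks had the lower share.

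Distance sorted the microRNA peaks into kinds. Up to 1 kb from the assigned start there were 84 peaks with a median enrichment of 6.86, beside 6.75 for all peaks at that distance. From 1 to 5 kb there were 113 with 6.15 beside 6.67, and from 5 to 50 kb 195 with 6.09 beside 6.05. Beyond 50 kb there were 112 with 5.26 beside 5.85. By median, the microRNA peaks closest to a hairpin were thus the strongest, the order seen in the whole list too. The upper end ran the other way, with an enrichment of at least 10 in 24.1% of the microRNA peaks beyond 50 kb and in 11.9% of those up to 1 kb, beside 21.6% and 13.1% of all peaks at these distances.

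**Figure D4:**
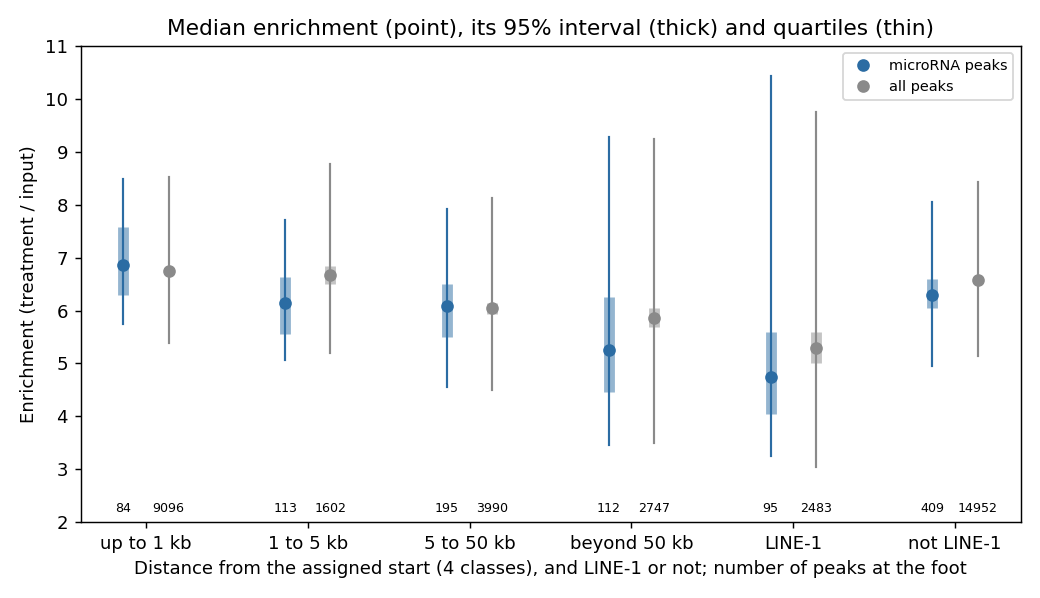
Median enrichment (treatment over input; points), its 95% interval (thick) and quartiles (thin) for microRNA peaks and all peaks, by distance from the assigned start and by centring on LINE-1, with the number of peaks at the foot. The median of microRNA peaks goes from 6.86 up to 1 kb to 5.26 beyond 50 kb.

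LINE-1 elements, mobile repeats of which the L1Md_T subfamily is young and active in the mouse, made up much of the distant group. Of the microRNA peaks 95, or 18.8%, were centred on LINE-1, beside 14.2% of all peaks, and they were assigned to 58 genes. Beyond 50 kb the share was 69.6% of the microRNA peaks and 63.1% of all peaks. Their median enrichment was 4.75, beside 6.30 for the other 409 microRNA peaks, yet 27.4% of them had an enrichment of at least 10, beside 10.8% of the others. The whole list showed the same, with medians of 5.30 on LINE-1 and 6.58 off it and with 24.2% and 13.2% at 10 or more. The subfamilies differed, with a median of 8.05 for 43 peaks on L1Md_T and of 3.15 for 23 on L1Md_F2, beside 7.60 and 3.50 for all peaks on them. For these peaks the assigned microRNA was far away, at a median of 200 kb.

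The 10 microRNA peaks with the highest enrichment show both kinds. The top 4, assigned to Mir6355 (39.8), Mir6238 (28.5), Mir592 (24.6) and Mir195b (21.1), and that of Mir1906-2 (19.2) were centred on L1Md_T between 151 and 732 kb from the named hairpin. That of Mir3966 (19.3) lay on an IAPEz element, and the strongest of Mirlet7bhg (20.0) on a CpG island 42.9 kb upstream. The other 3 lay near their hairpin. The peak of Mir7060 (19.3) was centred in an exon of Fbrs, 724 bp from the start of the hairpin, that of Mir3093 (19.1) was 54 bp from it and also covered Mir9-1, and that of Mir7677 (17.8) was 1820 bp from it, centred in an intron of Itpr3, an intracellular calcium channel gene. The input reads of these 10 peaks, 2.5 at the lowest, were all below the median of 16.0 for all peaks, while the treatment reads ran from 24.5 to 125, beside a median of 47.4.

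**Figure D5:**
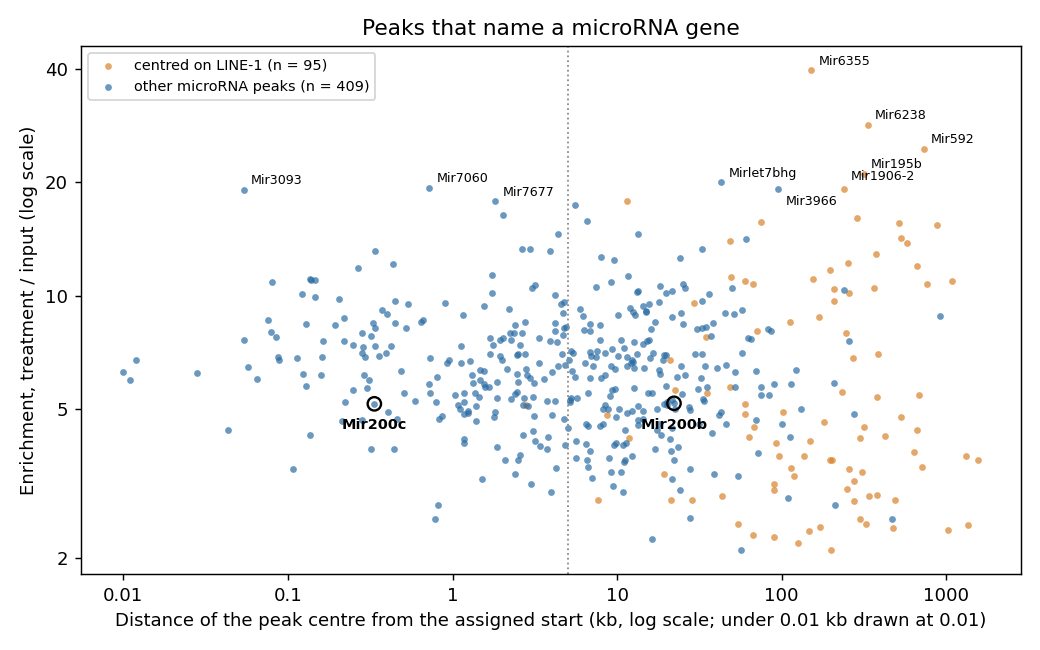
Enrichment (treatment over input, log scale) of the 504 microRNA peaks against the distance of their centre from the assigned start in kb (log scale), with the 95 LINE-1 peaks in orange and the dotted line at 5 kb. The Mir200c and Mir200b peaks (circled) have 5.15 and 5.17, and the 4 highest values are LINE-1 peaks more than 100 kb from the named hairpin.

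The peaks with the most treatment reads were broad regions inside protein-coding genes. Mir6941 had 261 reads in a peak of 12200 bp in Jag2, a Notch ligand gene, with an enrichment of 12.7. Mir499 had 232 in Myh7b, Mir7037 had 229 in Ints1, a subunit of the Integrator complex, and Mir3065 had 209 in Aatk. Mir1982 had 201 in Lingo3, with an enrichment of 15.8. The named hairpin was 2.24 to 9.57 kb from the centre of these 5 peaks.

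Most microRNA genes were named by 1 peak, 214 of 323, and 68 by a pair, while 41 genes with 3 or more took 154 peaks. These 41 were of 3 kinds. For 18 genes with 63 peaks, most of the peaks lay inside a host gene. Mir1963 had 8, of which 7 were in Ryr1, a skeletal muscle calcium channel gene, with enrichments of 4.86 to 7.50 over 42.5 kb. Mir6996 had 3 in Notch1, Mir7005 had 3 in Lama5, Mir7018 had 3 in Hspg2, and Mir6977 and Mir7226 had 4 each in the receptor phosphatase genes Ptprs and Ptprf. In this kind the hairpin lends its name to peaks spread through a long gene body.

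For 13 genes with 49 peaks most were centred on LINE-1, as for Mir6350, whose 8 peaks were all on LINE-1 and lay 89.8 to 1358 kb away. For 10 genes with 42 peaks neither held, as for Mirlet7bhg and for Mir23a, whose 3 peaks ran from 10.5 kb upstream to the hairpin. Mir10b, with 3 peaks in Hoxd3 and Hoxd4, fell in the first kind. A count of peaks per microRNA gene thus mixes occupied hairpins, host gene bodies and distant repeats.

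Some names in the list do not stand for the reference position of the hairpin. For 463 of the 504 peaks the distance in the list equalled the one recomputed from the reference. For 39 peaks of 21 genes, among them Mir466g, Mir669h, Mir28c, Mir466 and Mir6380, the reference has the named hairpin on another chromosome. Several of these belong to microRNA families with many copies. The authors kept unique alignments only, which concerns the reads and not the places of hairpins. Why the places differ was not tested. Of the 39 peaks, 26 were centred on LINE-1 and 4 lay within 5 kb of the listed start. Neither miR-200 peak was among them.

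Zeb1 motif words were common in microRNA peaks, as in the list. Over the whole peak, the 8-base motif was present in 405, or 80.4% (76.7 to 83.6%), beside 76.8% of all peaks. The E-box was present in 439, or 87.1%, beside 82.1%. In the central 200 bp alone, 18.3% of microRNA peaks held the 8-base motif. By spelling, CNCACCTG was in 59.9% of microRNA peaks and 51.1% of all, TNCACCTG in 41.7% and 33.8%, CNTACCTG in 30.2% and 23.6%, and TNTACCTG in 29.2% and 22.6%. The microRNA peaks were longer, with a median of 2050 bp beside 1850 bp, and the part of length in these shares was not tested. Several of the hairpin peaks described above held none of the 8-base words, among them those of Mirlet7i, Mir9-3 and Mir124a-3, while those of Mir34b, Mir203, Mir375 and Mir126a held 3, 7, 5 and 6.

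By chromosome, the microRNA peaks were most frequent on 11 and 8, with 56 and 55 peaks. These were 11.1% and 10.9% of the microRNA peaks, beside 8.02% and 7.59% of all peaks. Chromosome 8 carries 4.56% of the hairpins of the reference. The X chromosome carries 7.49% of the hairpins, 92 in all, and had 8 microRNA peaks, or 1.59%, close to its 1.58% of all peaks. On the X chromosome, then, the share of microRNA peaks was near that of all peaks and below that of hairpins.

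The pair Mir212 and Mir132, neuronal microRNAs with a shared seed, was chosen after its values were seen, as the highest enrichment among peaks that overlap 2 hairpins. A peak with an enrichment of 13.1 and 102 treatment reads covered both hairpins and was centred 338 bp upstream of Mir212. It held 3 matches to the 8-base motif. It resembles the Mir200c peak in overlapping a pair of clustered hairpins.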

How the data were processed

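The deposited list gives, for each peak, a signal, the mean number of reads in the Zeb1 or input libraries as the authors averaged it. The deposited enrichment is a ratio, or fold, of treatment over input that the authors describe as normalized for mapped reads. It was a median of 2.07 times the plain ratio of the deposited means, by a step the list does not show. The deposited p-value is 0 for every peak and ranked nothing. The authors' limits for a peak included 20 treatment reads, an enrichment of 2, a highest FDR, and a call in 2 or more of the Zeb1 libraries. They aligned with STAR 2.4.2a, removed duplicates with Picard 1.136 and annotated with HOMER 4.7. Total reads in peaks are not a depth.

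Hairpins, genes and sequence came from RefSeq GRCm38.p6, the build of the list. A peak was near a hairpin or gene when its centre was within 5 kb of the start. Other genes counted by the 5′-most curated start, and the named lists and host genes by any start. Positive distances lay downstream in all 249 cases that could be compared, the opposite of the list's legend, and the sign of the reference was used. Hairpins within 10 kb formed a cluster. Members were described by counts and medians beside all peaks or genes, with no test, because the list has no value per library. Members and lists were chosen with earlier results of these data known. Named genes were the listed microRNAs of the miR-200 family, EMT, stem cells and differentiation, the processing genes, Zeb1 and Zeb2, those assigned to the top 10 microRNA peaks by enrichment or the top 5 by treatment reads, and those with 3 or more peaks. The alternatives covered enrichment, distances, host names, membership, clusters, repeats and motif forms. Functions were first tested on simulated data. The tools were pysam 0.24.0, pandas 2.3.3, matplotlib 3.10.9, SciPy 1.17.1 and NumPy 2.4.6, under Python 3.11.15.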

Additional observations from a re-analysis of the deposited data

How the results depend on the processing

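Of 44 alternative values for 11 results, 20 stayed within 1.5 times the reported count or within the 95% interval of the reported share or median, and 24 did not. With an enrichment of at least 5, the median enrichment was 7.11, the median treatment reads 52.0, the share of peaks within 5 kb of the assigned start 45.0%, the share with the 8-base motif 83.7% and the share of hairpins with a peak within 5 kb 22.1%, and 1 peak in place of 2 lay within 10 kb of the Mir200c-Mir141 cluster, since the Emg1 peak dropped out. With 1 peak per gene, the highest, the median enrichment was 6.90. Peaks that overlap a hairpin numbered 148, with medians of 6.72 and 66.7 treatment reads. Without LINE-1 peaks the median treatment reads were 48.1 and, in an alternative chosen after seeing the data, 47.9% lay within 5 kb. With 1 kb in place of 5 kb the shares of peaks and of hairpins were 16.7% and 10.8%, and with 10 kb 51.4% and 35.9%; with 5 kb in place of 1 kb, 18.5% of peaks lay near another gene's start. Of hairpin clusters, each counted once, 31.0% had a peak within 5 kb, and any overlap with the window gave 29.4% of hairpins. The motif was in 18.3% of central 200 bp stretches and in 62.7% on the forward strand, and the E-box in 87.1% of peaks. Within 50 kb the Mir200b-Mir200a-Mir429 cluster had 1 peak and the Mir200c-Mir141 cluster 5. Wider windows hold more and narrower ones fewer by construction; the cause of the other shifts was not tested. Leaving out each Zeb1 library was not run, because the list has no value per library. No paired analysis was possible because the labels give 1 input for 3 Zeb1 libraries. The list gives no aligned depth per library, and the lack of a listed peak at a hairpin does not show that Zeb1 was absent there.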

Other observations

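Further hairpins, chosen after their values were seen, lay in or near peaks. Mir320 lay in a peak assigned to Polr3d, an RNA polymerase III subunit gene, with an enrichment of 16.0 and 76.9 treatment reads. Mir130a had a peak of 16.4 centred 2022 bp upstream that did not cover the hairpin. Mir193a lay in a peak of 8.20 and had another of 10.6 centred 7394 bp upstream on a CpG island. Mir137, a neural microRNA, lay in a peak of 7.55, and Mir191 and Mir425 shared one of 8.94 that held 13 matches to the 8-base motif.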
